A study of Mus musculus with 6 samples.

Results

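Sbp, Sbpl, Apof and Azgp1 encode proteins that glandular cells of the mouse prostate secrete. They were chosen by symbol, as 4 of the 18697 genes in the count table, because their levels across the 6 libraries of this series differed from those of probasin (Pbsn). The levels themselves therefore served to choose the genes, and what follows gives them as a description. The libraries were made from prostates of mice with experimental autoimmune prostatitis, in which immunity against prostate antigens inflames the gland. In the VUF11207 group (3 libraries, replicates 1, 2 and 3) the mice were injected intraperitoneally with the CXCR7 agonist VUF11207 at 5 mg per kg each day for 14 days; CXCR7 (Ackr3) is a chemokine receptor that scavenges its ligands. In the DMSO group (3 libraries) mice with the same disease were injected with an equal amount of DMSO for as long. Induced prostatitis was common to both groups, and no healthy mice were analysed here. The vehicle libraries were replicates 2 and 3 and an unnumbered library, whose column matched no sample's own file. The sources used here give neither strain nor age, nor whether any library pooled mice.

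Spermine-binding protein, the product of Sbp, is an androgen-dependent glycoprotein of rodent prostatic fluid that binds the polyamine spermine, and Sbpl encodes its close relative. Apolipoprotein F is a lipoprotein-associated plasma protein, known in humans as an inhibitor of cholesteryl ester transfer and made mainly by liver. Zinc-alpha-2-glycoprotein, encoded by Azgp1, is a soluble protein with a fold like that of MHC class I molecules, present in seminal plasma and linked to lipid breakdown in adipose tissue. Lobes of the rodent prostate secrete different mixtures of proteins, so the lobes and the amount of gland in a specimen can affect which of these transcripts are abundant. The sources used here do not give the lobes taken, and their part in the levels was not tested.

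Sbp and Sbpl are neighbours on chromosome 17. In mm10 (GENCODE release M21), Sbp lies on the plus strand at chr17:23941672-23945607, and Sbpl on the minus strand at chr17:23953084-23955274. Their 3′ ends face each other across 7.48 kb. Apof lies on the plus strand at chr10:128268671-128270153 and Azgp1 on the plus strand at chr5:137981520-137990233. No other annotated gene overlapped any of the 4. The coding sequences of Sbp (597 bases) and Sbpl (696 bases) were identical at 93.3% of 594 aligned bases. The same global alignment gave 61.3% to 65.4% for the other pairs among the 4 genes. Of 1573 distinct windows of 50 bases in annotated Sbp transcripts, 323 also occurred in Sbpl transcripts, which held 831 such windows. The longest shared run was 159 bases. Reads from such stretches match both genes, and the sources used here do not say how they were counted, so the split of counts between Sbp and Sbpl is uncertain.

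The promoters of the neighbouring pair and of Azgp1 are shown beside that of Pbsn, since Sbp and Sbpl had the same order of levels over the libraries and Pbsn another. Each sequence runs 5′ to 3′ on the gene's strand from 250 bases before to 50 bases after a RefSeq start (GRCm38.p6, the assembly of mm10). Capitals mark TGTTCT, which is the core hexamer of the androgen response element and was searched for on both strands of every window. They also mark the TATA box, searched for as TATAAA on both strands and chosen as a motif after the sequences were seen. RefSeq lists 3 starts for Sbp, and the one farthest downstream is shown. The windows are chr17:23941668-23941967 (plus strand), chr17:23955224-23955523 (minus), chr5:137981271-137981570 (plus) and chrX:77853451-77853750 (minus).
Sbp: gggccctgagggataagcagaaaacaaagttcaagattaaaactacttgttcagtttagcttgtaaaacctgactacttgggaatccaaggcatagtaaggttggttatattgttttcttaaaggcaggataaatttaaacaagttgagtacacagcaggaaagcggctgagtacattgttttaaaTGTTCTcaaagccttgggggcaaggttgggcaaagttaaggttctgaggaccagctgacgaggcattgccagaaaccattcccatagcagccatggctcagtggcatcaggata
Sbpl: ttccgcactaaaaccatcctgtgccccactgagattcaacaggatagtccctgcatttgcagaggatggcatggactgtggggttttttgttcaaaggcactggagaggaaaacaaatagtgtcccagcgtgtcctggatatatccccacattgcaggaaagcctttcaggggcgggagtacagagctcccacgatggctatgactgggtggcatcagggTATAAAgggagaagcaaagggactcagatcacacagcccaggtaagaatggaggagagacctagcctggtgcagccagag
Azgp1: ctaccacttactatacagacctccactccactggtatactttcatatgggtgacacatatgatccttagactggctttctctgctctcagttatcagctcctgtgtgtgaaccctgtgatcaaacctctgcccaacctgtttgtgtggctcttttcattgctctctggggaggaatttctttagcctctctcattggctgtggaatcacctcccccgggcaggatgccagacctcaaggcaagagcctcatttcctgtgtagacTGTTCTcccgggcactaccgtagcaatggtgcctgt
Pbsn: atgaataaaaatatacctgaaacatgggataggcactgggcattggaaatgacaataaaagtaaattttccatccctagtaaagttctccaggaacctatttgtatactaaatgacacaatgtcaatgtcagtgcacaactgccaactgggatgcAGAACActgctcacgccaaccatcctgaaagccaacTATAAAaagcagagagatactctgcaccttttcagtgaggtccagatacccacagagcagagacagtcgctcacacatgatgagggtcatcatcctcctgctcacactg
The hexamer TGTTCT occurred once in the Sbp window at base -64 from the start, once in the Azgp1 window at base 15 after it and once in the Pbsn window at base -95 on the other strand. It did not occur in the Sbpl window, nor in the windows of the other Sbp starts. Of 32851 promoter windows of the same length, 19.0% held it, so its presence in these 3 is nothing particular. The full palindromic androgen response element, which contains the hexamer, occurred in none of these windows and in 0.00913% of all. TATAAA occurred at base -30 of Sbpl and base -59 of Pbsn, and in 13.6% of all windows.

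The stretch that Sbpl has around its TATA box was also found at Sbp, across the 3′ end of the window shown for it. Both stretches, 30 bases each with TATAAA in capitals, were picked after the sequences were seen.
Sbp: agtggcatcaggaTATAAAgggacaagcca
Sbpl: ggtggcatcagggTATAAAgggagaagcaa
They lie at chr17:23941953-23941982 (plus) and chr17:23955287-23955316 (minus), and 26 of their 30 bases were identical. In the annotation the Sbp stretch falls in the first exon of a longer transcript, whereas that of Sbpl precedes its start.

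Total counts ran from 20308018 to 33368058 per library, and the shares below had Wilson 95% intervals of at most 0.0142 percentage points on either side, for counting error only. Seminal vesicle genes (8 fixed markers) took 27.8%, 3.11% and 3.52% of counts in VUF11207 replicates 1, 2 and 3, and 0.695%, 63.3% and 16.3% in the unnumbered DMSO library and DMSO replicates 2 and 3. A share is lowered wherever they are high, so levels are given mainly as CPM, counts scaled to a common library size with TMM factors. Luminal epithelial markers, such as Krt8 and Krt18, summed to 2450, 2440 and 3050 CPM in the VUF11207 libraries and to 2410, 3030 and 2730 CPM in the DMSO libraries. In such bulk samples, fewer cells of a type and less RNA per cell cannot be told apart.

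Sbp and Sbpl were among the most abundant transcripts of most libraries, and both were far lower in the unnumbered DMSO library than in any other. Sbp stood at 66230, 64890 and 143200 CPM in VUF11207 replicates 1, 2 and 3, and at 3710, 50370 and 66860 CPM in the unnumbered DMSO library and DMSO replicates 2 and 3. VUF11207 replicate 3 was the highest, VUF11207 replicates 1 and 2 and DMSO replicate 3 lay close together, and the groups overlapped. As shares of all counts, Sbp took 6.68%, 8.09% and 16.3% in the VUF11207 libraries and 0.494%, 2.14% and 8.22% in the DMSO libraries. By count it ranked 3, 1 and 1 among all genes in the VUF11207 libraries, and 8, 7 and 2 in the DMSO libraries.

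Sbpl stood at 21690, 16860 and 57540 CPM in the VUF11207 libraries, and at 673.8, 13550 and 25140 CPM in the DMSO libraries. Its libraries fell in the same order as those of Sbp, with a wider span of 85.4-fold between the highest and lowest library, against 38.6-fold for Sbp. Sbpl took 2.19%, 2.10% and 6.55% of counts in the VUF11207 libraries and 0.0897%, 0.576% and 3.09% in the DMSO libraries. The 4 genes together took 8.89%, 10.2% and 22.9% of counts in the VUF11207 libraries, against 0.599%, 2.72% and 11.3% in the DMSO libraries, nearly all of it Sbp and Sbpl.

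Apof and Azgp1 were far less abundant and spanned a smaller range. Sbp counts exceeded Apof counts by 579.4-fold, 476.2-fold and 755.7-fold in the VUF11207 libraries, and by 60.58-fold, 1011-fold and 1337-fold in the DMSO libraries. Apof stood at 114.3, 136.3 and 189.5 CPM in VUF11207 replicates 1, 2 and 3, and at 61.24, 49.81 and 49.99 CPM in the unnumbered DMSO library and DMSO replicates 2 and 3. Every VUF11207 library was above every DMSO library, and the unnumbered DMSO library, the lowest for Sbp, was the highest of its group for Apof. Azgp1 stood at 85.1, 102.3 and 243.6 CPM in the VUF11207 libraries, and at 56.73, 51.36 and 81.79 CPM in the DMSO libraries. On this scale its groups did not overlap either, but VUF11207 replicate 1 and DMSO replicate 3 were nearly equal. As shares of all counts the Azgp1 groups overlapped, at 0.00859%, 0.0127% and 0.0277% with VUF11207 and at 0.00755%, 0.00218% and 0.0101% with DMSO. They also overlapped with seminal vesicle counts left out, at 0.0119% in VUF11207 replicate 1 and 0.0120% in DMSO replicate 3. The shares of Apof did not overlap, at 0.0115%, 0.0170% and 0.0216% with VUF11207 and at 0.00815%, 0.00212% and 0.00615% with DMSO. Between the highest and lowest library the span was 3.8-fold for Apof and 4.74-fold for Azgp1. These counts rest on 707 reads or more for Apof and on 729 or more for Azgp1 in each library.

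**Figure D1:**
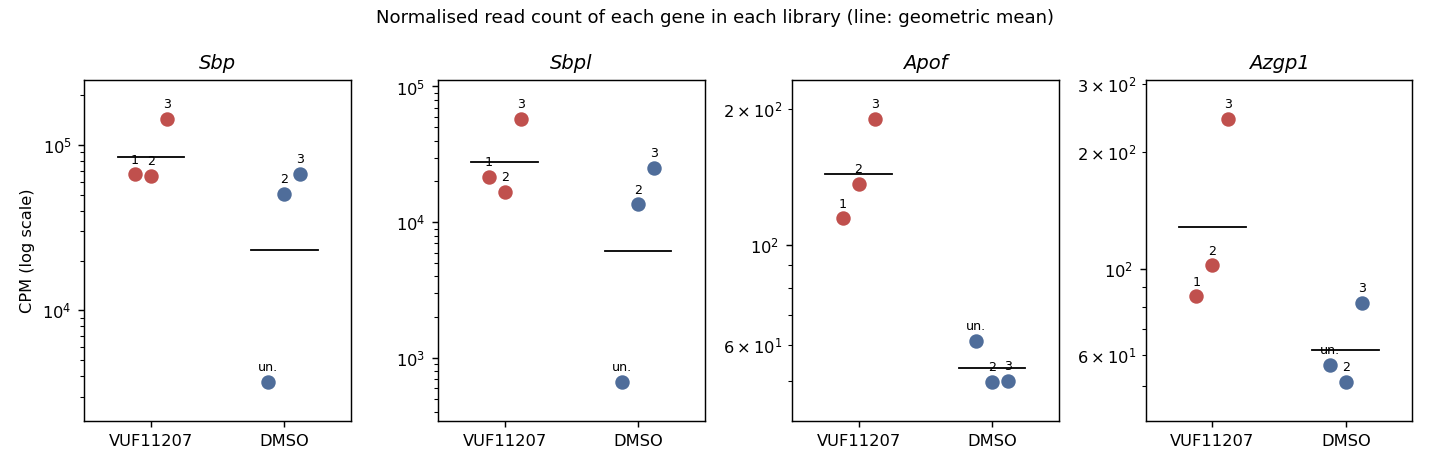
CPM after TMM scaling (log axis) of Sbp, Sbpl, Apof and Azgp1 in each VUF11207 (red) and DMSO (blue) library, with the geometric mean of the group as a line and un. for the unnumbered library. The unnumbered DMSO library is far below all others for Sbp (3710 CPM) and Sbpl (673.8 CPM), whereas for Apof and Azgp1 the groups do not overlap in CPM (as shares of counts those of Azgp1 do).

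Set against the length of the annotated exons, Sbp was above Sbpl, and Sbpl above Apof and Azgp1, both in the library with most Sbp and in that with least. How reads shared by Sbp and Sbpl were counted is not known, so the gap between these neighbours is uncertain. In VUF11207 replicate 3, Sbp reached 97340 CPM per kb, Sbpl 65170, Azgp1 151.3 and Apof 150.6. In the unnumbered DMSO library the values were 2522 CPM per kb for Sbp, 763.1 for Sbpl, 48.68 for Apof and 35.24 for Azgp1. Pbsn, per length, was at 2940 CPM per kb in VUF11207 replicate 3 and at 19620 in the unnumbered DMSO library. That library was the single one in which Pbsn exceeded Sbp.

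Ratios of counts within a library do not depend on scaling between libraries. Sbpl counts came to 32.8%, 26.0% and 40.2% of Sbp counts in VUF11207 replicates 1, 2 and 3, and to 18.2%, 26.9% and 37.6% in the unnumbered DMSO library and DMSO replicates 2 and 3. The proportion was lowest where Sbp was lowest and highest where Sbp was highest, so Sbpl counts were not a constant fraction of Sbp counts. The uncertain split of shared reads bears on these proportions. Sbp exceeded Pbsn by 106.3-fold, 9.63-fold and 53.99-fold in the VUF11207 libraries, and by 73.96-fold and 86.92-fold in DMSO replicates 2 and 3. In the unnumbered DMSO library the ratio was 0.210. Apof counts were 1.34, 1.33 and 0.778 times those of Azgp1 in the VUF11207 libraries, and 1.08, 0.970 and 0.611 times in the DMSO libraries.

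**Figure D2:**
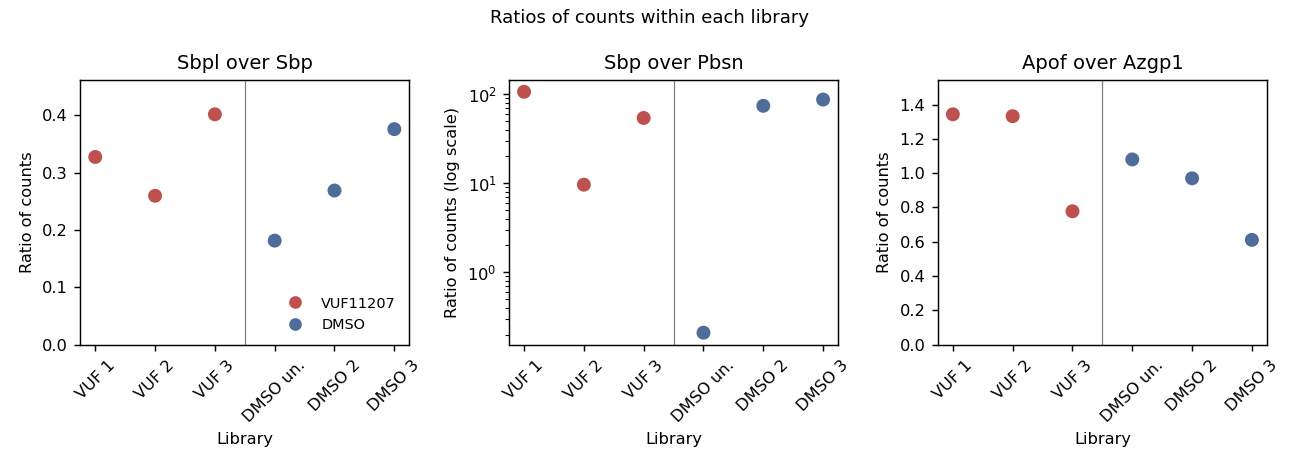
Ratio of counts within each library for Sbpl over Sbp, Sbp over Pbsn (log axis) and Apof over Azgp1, with VUF11207 libraries in red left of the DMSO libraries in blue. Sbp over Pbsn spans from 0.210 in the unnumbered DMSO library to 106.3 in VUF11207 replicate 1, and Sbpl over Sbp from 0.182 to 0.402.

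Over all 6 libraries the profile of Sbp was closer to that of Sbpl, and the profile of Apof to that of Azgp1, than across these pairs, but this order depended on the extreme libraries. Log2 CPM of Sbp and Sbpl had a Pearson r of 0.996 and a Spearman rho of 1, and r was 0.849 without the 2 libraries farthest from the median of Sbp. Apof and Azgp1 had an r of 0.849 and a rho of 0.943, and r was 0.658 without the 2 libraries farthest for Apof. Across the pairs r was 0.489 for Sbp and Apof, 0.473 for Sbpl and Apof, 0.632 for Sbp and Azgp1 and 0.649 for Sbpl and Azgp1. Without the 2 libraries farthest for Sbp, r was 0.509 for Sbp and Apof and 0.909 for Sbp and Azgp1, which was above the value for Sbp and Sbpl. Without the 2 farthest for Sbpl it was 0.0261 for Sbpl and Apof and 0.555 for Sbpl and Azgp1. After centring each gene within its treatment group, r was 0.995 for Sbp and Sbpl, 0.768 for Apof and Azgp1, -0.17 for Sbp and Apof, -0.144 for Sbpl and Apof, 0.398 for Sbp and Azgp1 and 0.447 for Sbpl and Azgp1. These values are descriptions of 6 libraries that chose the genes, and no p is given for them.

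Pbsn, a lipocalin, and Tgm4, the prostate transglutaminase that helps to clot rodent semen, had the reverse order in the unnumbered DMSO library. Pbsn was at 623.2, 6739 and 2652 CPM in the VUF11207 libraries and at 17690, 681.0 and 769.2 CPM in the DMSO libraries. Its r with Sbp was -0.636, yet without the 2 libraries farthest for Sbp it was 0.258, and in VUF11207 replicate 2 Pbsn was second highest while Sbp was at 64890 CPM. With Apof its r was 0.204 and with Azgp1 0.0505. Tgm4 had an r of -0.678 with Sbp and of 0.981 with Pbsn.

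Msmb and Spink1 were nearer to Sbp. Msmb, which encodes beta-microseminoprotein of seminal fluid, was at 471.8, 886.7 and 2986 CPM in the VUF11207 libraries and at 40.59, 283.7 and 361.1 CPM in the DMSO libraries. Its groups did not overlap, with VUF11207 higher, as was so for 3.05% of all genes tested. Spink1, a secreted trypsin inhibitor, was at 14280, 26140 and 39130 CPM with VUF11207 and at 1242, 16820 and 8345 CPM with DMSO. The r with Sbp was 0.926 for Msmb and 0.943 for Spink1, and without the 2 libraries farthest for Sbp it was 0.568 and -0.239. The likeness of Spink1 to Sbp thus rested on those libraries. With Azgp1, Msmb had an r of 0.851, and of 0.992 without the 2 libraries farthest for Azgp1.

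**Figure D3:**
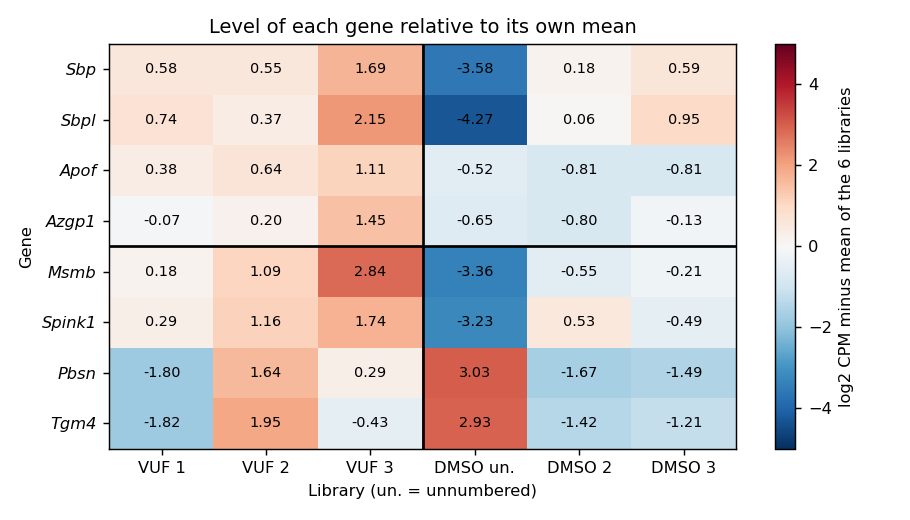
Log2 CPM of each gene, centred on its 6-library mean, for Sbp, Sbpl, Apof and Azgp1 (above the line) and 4 other prostate secretory genes, with VUF11207 libraries left of DMSO libraries. In the unnumbered DMSO library Sbp is at -3.58 and Sbpl at -4.27, whereas Pbsn is at 3.03 and Tgm4 at 2.93; in VUF11207 replicate 3 all of Sbp, Sbpl, Apof and Azgp1 have their highest value.

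The genes with the most similar profile were sought among 11558 tested genes (mean log2 CPM 1 or higher), by Pearson r over the 6 libraries. High values are common for genes with 1 extreme library, and 4.64% of those genes had an r of at least 0.9 with Sbp, 5.23% with Sbpl, 1.25% with Azgp1 and 0.407% with Apof. Nearest to Sbp were Slc26a4, which encodes the anion exchanger pendrin (r 0.999), then Ap1ar, the circadian repressor Cry1, the corepressor Tle4 and Cdcp3, a CUB-domain gene (r 0.996 to 0.997). Slc26a4 was at 120.8, 114.2 and 252.9 CPM with VUF11207 and at 5.07, 78.9 and 121 CPM with DMSO. Its span of 49.9-fold was close to that of Sbp, whereas Ap1ar, Cry1 and Tle4 spanned 2.46-fold to 4.10-fold. Cdcp3 was also the nearest to Sbpl, at 2998, 2205 and 7124 CPM with VUF11207 and at 100.1, 1766 and 3198 CPM with DMSO. After it came Gstm6, a glutathione S-transferase, Slc2a12, a glucose transporter, Abo, the blood group glycosyltransferase, and Cry1 (r 0.998 or more). Abo was at 322.6, 234.6 and 637.4 CPM with VUF11207 and at 9.81, 186.3 and 350 CPM with DMSO.

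Other genes were nearest to Apof and Azgp1. For Apof they were Fam171b (r 0.978), the acyl-CoA thioesterase gene Acot7 (0.974), Ywhah, which encodes a 14-3-3 protein (0.969), the interferon response factor gene Irf7 (0.960) and Tox3, an HMG-box gene (0.959). Acot7 was at 12.14, 13.15 and 13.66 CPM with VUF11207 and at 8.59, 8.95 and 8.63 CPM with DMSO, a span of 1.59-fold against 3.8-fold for Apof. For Azgp1 they were Blzf1, a Golgi matrix protein gene (0.995), Dhx58, an RNA helicase gene of the antiviral response (0.994), the chromatin gene Ing2 (0.991), the tuftelin gene Tuft1 (0.991) and the actin regulator Twf1 (0.990). Dhx58 was at 5.24, 5.97 and 9.30 CPM with VUF11207 and at 3.92, 3.66 and 5.24 CPM with DMSO. Pbsn ranked 9381 of 11558 by its likeness to Sbp and 3429 by its likeness to Apof.

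The comparison of VUF11207 with DMSO asks how activation of CXCR7 bears on the inflamed gland. In edgeR's quasi-likelihood test of 13753 genes, 0 passed a Benjamini-Hochberg adjusted p of 0.05 (0% called), so 0 of the 4 genes did. At an unadjusted p under 0.05 that test had 131 genes higher (0.953%) and 65 lower (0.473%). At an adjusted p under 0.05, DESeq2 called 4 genes and limma voom 0. Among the 4 DESeq2 calls was Apof, beside 0.0231% called among the 17291 genes DESeq2 tested. Since these libraries chose the genes, nothing is read from that count. Leaving out DMSO replicate 2 or VUF11207 replicate 2 ended the DESeq2 call (adjusted p 0.112 and 0.108), and over all 6 libraries left out in turn its adjusted p ran from 0.00102 to 0.112.

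All 4 fitted fold changes were positive, where 44.7% of all genes tested had a positive one. Sbp averaged 91440 CPM ± 44830 with VUF11207 and 40310 CPM ± 32750 with DMSO (SD, n = 3 each), and its fitted log2 fold change was 1.18 ± 1.34 (SE). Sbpl averaged 32030 CPM ± 22230 with VUF11207 and 13120 CPM ± 12240 with DMSO, a log2 fold change of 1.29 ± 1.31 (SE). For both, the 95% interval of the fit contained 0, from -2.01 to 4.38 for Sbp and from -1.82 to 4.40 for Sbpl. Without VUF11207 replicate 3 the log2 fold change was 0.70 for Sbp and 0.55 for Sbpl, and without the unnumbered DMSO library 0.64 and 0.73. Without DMSO replicate 3 that of Sbpl was 2.17 and that of Sbp 1.76.

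Apof averaged 146.7 CPM ± 38.65 with VUF11207 and 53.68 CPM ± 6.55 with DMSO (SD, n = 3 each), and its fitted log2 fold change was 1.45 ± 0.25 (SE) with a 95% interval from 0.85 to 2.05. Leaving out any 1 library kept the value between 1.23 and 1.63. Azgp1 averaged 143.7 CPM ± 86.98 with VUF11207 and 63.29 CPM ± 16.25 with DMSO, a log2 fold change of 1.18 ± 0.44 (SE) with a 95% interval from 0.13 to 2.24. Without VUF11207 replicate 3 it was 0.57, so that library carried much of the Azgp1 value. Groups that do not overlap in CPM, as for Apof and Azgp1, were found with higher VUF11207 values in 3.05% of the genes tested and with lower ones in 2.52%.

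**Figure D4:**
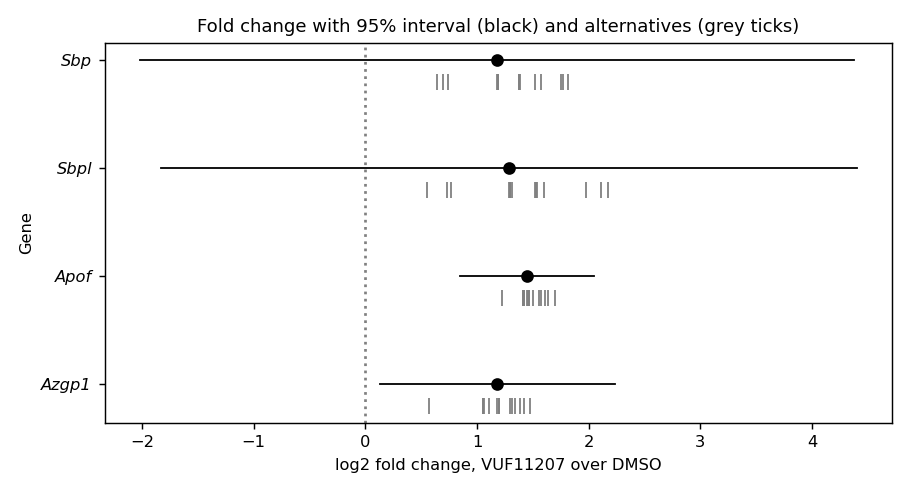
Log2 fold change of VUF11207 over DMSO for each gene from edgeR (point) with its 95% interval (line), and the values under 15 alternative analyses as grey ticks. The intervals of Sbp and Sbpl run from -2.01 to 4.38 and from -1.82 to 4.40, that of Apof from 0.85 to 2.05, and all alternatives are above 0.

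Relative to the luminal epithelial markers, the spread of Sbp and Sbpl persisted. The sums of those markers ran only from 2410 to 3050 CPM over the libraries, so setting levels against them could change the spread little. The log2 CPM of Sbp minus the mean of those markers was 7.90, 7.99 and 8.69 with VUF11207, and 3.97, 7.31 and 7.76 with DMSO. The same quantity for Apof was -1.28, -0.91 and -0.87 with VUF11207 and -1.95, -2.67 and -2.62 with DMSO, again without overlap. For Azgp1 it was -1.70, -1.32 and -0.51 with VUF11207 and -2.06, -2.62 and -1.91 with DMSO. With seminal vesicle genes left out of the total, Sbp took 9.25%, 8.35% and 16.9% of the remaining counts with VUF11207 and 0.497%, 5.84% and 9.82% with DMSO.

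Liver and fat, other tissues that express Apof or Azgp1, left few transcripts in the specimens. The 9 liver markers summed to 0.744, 5.00 and 2.33 CPM with VUF11207 and to 33.1, 0.564 and 0.873 CPM with DMSO. Alb, which encodes albumin, was at 0 counts in VUF11207 replicate 1, which allows up to 0.101 CPM, and highest at 13.1 CPM in the unnumbered DMSO library. The part of liver transcripts in the levels of Apof was not tested. The 5 adipocyte markers summed to 24.2, 6.88 and 13.8 CPM with VUF11207 and to 6.14, 2.96 and 14.3 CPM with DMSO, mostly Fabp4. Adipoq, the adiponectin gene, was at 1.49, 1.31 and 1.22 CPM with VUF11207 and at 0, 0.282 and 0.84 CPM with DMSO. Its groups did not overlap, with VUF11207 higher, as was so for 3.05% of all genes tested. Lep was at most 0.169 CPM. The part of adipocyte transcripts in the levels of Azgp1 was not tested.

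The unnumbered DMSO library, which decides the low end of Sbp and Sbpl, differed in other markers too, with the most red blood cell and macrophage transcripts of all 6. Smooth muscle markers summed to 7620, 16900 and 3620 CPM with VUF11207 and to 13300, 4310 and 4000 CPM with DMSO. T cell markers summed to 5.31, 18.5 and 4.80 CPM with VUF11207 and to 15.8, 5.14 and 9.05 CPM with DMSO. Macrophage markers summed to 85, 174 and 76.3 CPM with VUF11207 and to 292, 88.3 and 145 CPM with DMSO. Red blood cell markers summed to 109, 499 and 81.1 CPM with VUF11207 and to 1840, 187 and 721 CPM with DMSO. VUF11207 replicate 2 was the other library high in smooth muscle and T cell markers, and Sbp there was at 64890 CPM. The part of these differences in the levels of Sbp and Sbpl was not tested.

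Of the other protein-coding genes within 100 kb of Sbp or Sbpl that the table held, none exceeded 27.1 CPM in any library. Prss22 and Prss27, serine protease genes, were at 0.947 to 2.94 CPM with VUF11207 and at 0.037 to 1.68 CPM with DMSO. Both were lowest in the unnumbered DMSO library, with 2 counts for Prss22 and 1 for Prss27. Their highest counts in any library were 87 and 83. With the unnumbered library included, their r with Sbp was 0.964 and 0.977. Kctd5, 92.5 kb from Sbpl, was at 19.6 to 26.7 CPM with VUF11207 and had a log2 fold change of 0.42 ± 0.21 (SE).

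Dcpp1 and Dcpp2, which encode demilune cell and parotid proteins of salivary glands and lie 58.8 and 40.9 kb upstream of Sbp, had another pattern. Dcpp1 had 338, 0 and 0 counts in VUF11207 replicates 1, 2 and 3, and 0, 2 and 840 in the unnumbered DMSO library and DMSO replicates 2 and 3. Dcpp2 had 122 counts in VUF11207 replicate 1 and 195 in DMSO replicate 3, and 0 elsewhere. A count of 0 allows up to 0.101 CPM in each of VUF11207 replicates 2 and 3, up to 0.111 in the unnumbered DMSO library and up to 0.211 in DMSO replicate 2. VUF11207 replicate 1 and DMSO replicate 3, which held nearly all Dcpp1 and Dcpp2 counts, also had the most skeletal muscle transcripts, at 4400 CPM in VUF11207 replicate 1 and 4070 CPM in DMSO replicate 3, against 1180 and 514 CPM in the other VUF11207 libraries and 812 and 405 CPM in the other DMSO libraries. Dcpp1 and Dcpp2 belong to a family of close copies, so the split of counts between them is uncertain.

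The neighbours of Apof had other profiles, with r to Apof from -0.663 to 0.452. Stat2, a transcription factor gene of interferon signalling that starts 406 bases after the end of Apof on the same strand, was at 42, 66 and 63.6 CPM with VUF11207 and at 81, 29 and 42.7 CPM with DMSO. Its log2 fold change was 0.17 ± 0.40 (SE), and its groups overlapped. Apon, the apolipoprotein N gene 12.8 kb upstream, had 0 counts in all VUF11207 libraries and 10, 0 and 1 counts in the DMSO libraries. Of the other neighbours within 100 kb of Apof that passed the count filter, log2 fold changes ran from -0.80 for Il23a to 0.37 for Gls2. The nearest tested neighbour of Azgp1, Zkscan1 at 94.9 kb, was at -0.16 ± 0.24 (SE).

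Genes of related pathways were looked at through lists fixed for this tissue, of which 0 members passed in either direction in edgeR's test, as 0 of all genes did. Among 10 other secretory genes of the prostate, 6 had a positive log2 fold change and the median was 0.26, against -0.04 over all genes tested. The values were 2.39 ± 0.70 for the beta-defensin gene Defb50, 2.81 ± 0.94 for Wfdc3, which encodes a whey acidic protein domain, 2.66 ± 0.99 for Msmb and 1.59 ± 1.09 for Spink1 (SE). Pbsn was at -0.93 ± 1.46 and Tgm4 at -0.79 ± 1.46. Defb50 was at 852, 1530 and 3410 CPM with VUF11207 and at 157, 375 and 569 CPM with DMSO, highest in VUF11207 replicate 3 as were Sbp and Azgp1.

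Of 19 listed genes of the androgen response, 8 were positive, with a median of -0.07. Hoxb13, a homeobox gene of the prostate, had a log2 fold change of 0.92 ± 0.41 (SE). Its groups did not overlap, with VUF11207 higher, as was so for 3.05% of all genes tested. However, its 384 CPM in VUF11207 replicate 1 and 378 CPM in the unnumbered DMSO library were nearly equal. The log2 fold change of Fkbp5, an androgen- and glucocorticoid-responsive chaperone gene, was 1.01 ± 0.61 (SE). Those of Slc45a3, the prostein gene, and Camkk2, a kinase gene, were 0.68 ± 0.42 and -0.48 ± 0.27 (SE). Fkbp5 was at 221, 132 and 257 CPM with VUF11207 and at 27.4, 133 and 142 CPM with DMSO, lowest in the library with least Sbp.

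Spermine, the ligand of spermine-binding protein, is made by the polyamine pathway. Of its 13 listed genes, 6 were positive and the median was -0.01. Odc1, ornithine decarboxylase at the head of the pathway, was at 53.9, 40.1 and 51.3 CPM with VUF11207 and at 25.5, 66.9 and 38.1 CPM with DMSO. Sms, spermine synthase, was at 22.4, 69.9 and 30.5 CPM with VUF11207 and at 124, 17.3 and 26.0 CPM with DMSO, highest in the library with least Sbp. Amd1, which supplies decarboxylated S-adenosylmethionine, was lowest there, at 43.4 CPM, and highest in VUF11207 replicate 3, at 471 CPM. Log2 fold changes were 0.93 ± 0.30 for the arginase gene Arg2 and 0.73 ± 0.72 for Amd1 (SE). They were 0.31 ± 0.36 for Srm, spermidine synthase, and -0.55 ± 0.56 for Smox, spermine oxidase (SE). The groups of Arg2 did not overlap, with VUF11207 higher, as was so for 3.05% of all genes tested.

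Apolipoprotein F acts beside other apolipoproteins and lipid transfer proteins. Of 18 listed apolipoprotein and lipid transfer genes, 11 passed the count filter, 3 of them were positive and the median was -0.12; the highest of these was 0.15 for the cholesterol exporter gene Abca1. Apoe, the main apolipoprotein of macrophages, was at 256, 143 and 194 CPM with VUF11207 and at 140, 253 and 252 CPM with DMSO. Clu, clusterin, was at 1570, 276 and 210 CPM with VUF11207 and at 54.5, 897 and 2940 CPM with DMSO. Like Sbp it was lowest in the unnumbered library, but it was next lowest in VUF11207 replicate 3, where Sbp was highest. Apoc1 had a log2 fold change of -0.73 ± 0.28 and Abcg1, another exporter gene, -1.39 ± 0.62 (SE). For both, the groups did not overlap, with VUF11207 lower, as was so for 2.52% of all genes tested. Apoa2 was at -1.06 ± 1.10 and Lcat, the plasma cholesterol esterifying enzyme, at -0.39 ± 0.56 (SE).

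Of 9 MHC class I and related genes, to whose fold zinc-alpha-2-glycoprotein belongs, 4 were positive and the median was -0.19. B2m, the light chain of class I molecules, was at 4330, 2190 and 3040 CPM with VUF11207 and at 1800, 15200 and 2670 CPM with DMSO, highest in the library richest in seminal vesicle counts. Fcgrt, the neonatal Fc receptor gene, was at 0.43 ± 0.32, Procr at 0.59 ± 0.53, B2m at -1.04 ± 0.92 and Cd1d1 at -1.10 ± 0.77 (log2 fold change, SE). Of 21 genes of the secretory pathway, which serves every secreted protein, 3 were positive and the median was -0.17. Among them Ssr4 was at -0.59 ± 0.41, Sec61a1 of the translocon at -0.29 ± 0.28, Ssr2 at -0.25 ± 0.25 and the disulfide isomerase gene Pdia4 at -0.30 ± 0.36 (SE).

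**Figure D5:**
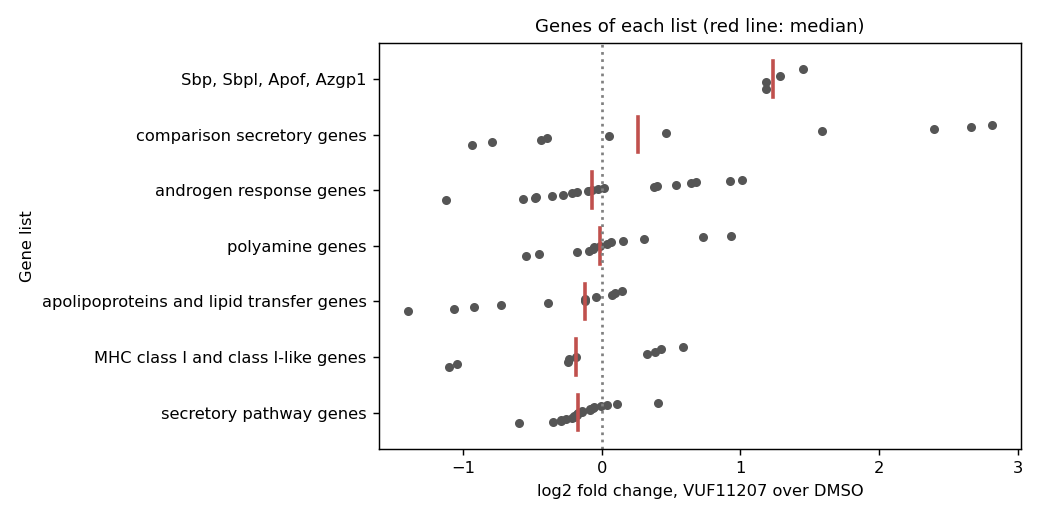
Log2 fold change of VUF11207 over DMSO for each tested gene (points) of 7 lists, with the list's median as a red line. Sbp, Sbpl, Apof and Azgp1 lie between 1.18 and 1.45, the other secretory genes spread from -0.93 to 2.81, and the medians of the other 5 lists lie between -0.19 and -0.01.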

How the data were processed

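TRIzol extraction and a VAHTS Universal V6 library kit were used, per the labels' protocols. The authors deposited raw integer counts for each gene symbol. The submitters' processing notes name fastp, HISAT2, HTSeq and mm10; the sources used here give neither annotation, strand setting nor the handling of reads that match several genes. The 5 libraries with their own file held the same counts there as in the table. The labels do not tie libraries to mice, so SDs and p-values measure the spread between samples, which may be technical.

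VUF11207 was compared with DMSO by edgeR 4.0.16 (TMM, filterByExpr, robust quasi-likelihood test, Benjamini-Hochberg over 13753 genes). Standard errors came from the fold change and F statistic. DESeq2 1.42.0, limma 3.58.1 voom, other scalings and filters, replicate blocks and leaving out libraries were alternatives. Only the edgeR, DESeq2 and voom fits were tested on simulated counts. An exact permutation test cannot go below 0.1 with 3 against 3, and none was run. Log2 CPM used a prior count of 2. The members and lists were chosen with earlier results of these data known. The genes named were the 4 members, Pbsn, Tgm4, Msmb and Spink1, the 5 genes with the highest r to each member (without Gm, Rik and LOC names), and up to 4 genes with the smallest p of each list. Neighbouring genes, markers and other genes such as Odc1, Sms, Apoe and Clu were chosen outside that rule, after their values were seen. Promoters are from RefSeq, and 3 of the 4 members matched; Apof did not. R 4.3.3, Python 3.11.15 and Biopython 1.88 were used. No column of the table was left unused.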

Additional observations from a re-analysis of the deposited data

How the results depend on the processing

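Under 15 alternatives the log2 fold changes of Sbp, Sbpl, Apof and Azgp1 stayed positive and within 1 SD (within groups, log2 CPM) of the reported values. That SD was 1.69 for Sbp, 2.08 for Sbpl, 0.288 for Apof and 0.625 for Azgp1. For Sbp and Sbpl it exceeded the fold change itself, so it was a loose limit there. With 1 library left out the fold changes ran from 0.64 to 1.76 for Sbp, 0.55 to 2.17 for Sbpl, 1.23 to 1.63 for Apof and 0.57 to 1.48 for Azgp1. The count of genes called over the whole table was 0 in edgeR with all libraries and in each edgeR fit without 1 library, but 4 with DESeq2 and 3 with scaling by library totals alone. Under that scaling the median over all tested genes was 0.14 (log2), against -0.04 with TMM. Without the 2 libraries richest in seminal vesicle counts, chosen after seeing the data, the values were 1.57, 1.54, 1.57 and 1.34 for Sbp, Sbpl, Apof and Azgp1.

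Deviations of same-numbered libraries from their group means had an r of -0.332 for replicates 2 and 0.0525 for replicates 3. Over all pairs of a VUF11207 and a DMSO library r ran from -0.593 to 0.677. The r of a true pair is not known, so these values cannot decide whether the numbers pair libraries. A replicate block on replicates 2 and 3 of both groups called 0 genes and gave 0.74, 0.77, 1.70 and 1.30. A block by the number in the column names, added later, called 0 genes and gave 1.77, 1.97, 1.42 and 1.05. As shares of counts the mean log2 differences were 2.22, 2.52, 1.77 and 1.40, and 1.84, 2.14, 1.39 and 1.02 without seminal vesicle counts. Counting error is small for all 4 genes, so the spread between 3 libraries a group limits these values.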
